A study of Mus musculus with 18 samples.

Results

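Transcripts of 10 genes of the Notch pathway were followed through every cell cluster of the mouse stomach: the receptors *Notch1*, *Notch2*, *Notch3* and *Notch4*, the ligands *Dll1*, *Dll4*, *Jag1* and *Jag2*, and the target genes *Hes1* and *Hey1*. They were chosen by name from the pathway, with earlier results of these data known, and are 10 of the 31201 gene names of the count tables. All mice were wild-type C57BL/6J males, 10 weeks old, without treatment. Dataset 1 held cells of corpus and antrum gastric units, dataset 2 cells of corpus gastric units only, and each dataset had 2 pools of 3 mice, called tube1 and tube2 in dataset 1 and K and T in dataset 2. The pools came from different mice and were prepared by 2 operators, so that mice and operator cannot be told apart. The region of a cell of dataset 1 is known only through its cluster. Single cells were sorted into 384-well plates and measured by Quartz-Seq2, which labels each transcript of a well with a cell barcode and a unique molecular identifier (UMI), so that molecules rather than reads are counted. Dead cells were gated out by a dye, which is TO-PRO-3 in the sample descriptions and propidium iodide for dataset 1 in the methods of the study, and dataset 2 was also stained with Hoechst33342. The study looked for signaling pathways that act on cell differentiation in corpus units, and here the question was where in these types the Notch genes were transcribed.

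Notch signaling passes between neighbouring cells. A ligand of the Delta or Jagged family on one cell binds a Notch receptor on the next, the receptor is cut by ADAM proteases and then by gamma-secretase, and its freed intracellular domain enters the nucleus, joins the DNA-binding protein RBPJ with a Mastermind protein, and switches on targets such as *Hes1* and *Hey1*. HES and HEY proteins are repressors that hold back bHLH factors of secretory and endocrine differentiation. In the stomach the pathway is known for keeping progenitor cells dividing, and in blood vessels *Dll4*, *Notch1*, *Notch4* and *Hey1* are known for their part in arterial fate and vessel sprouting.

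The promoters of both Jagged ligands are shown because these ligands differed from each other between cell types, and those of *Notch4* and *Dll4* because both were highest in endothelial-like cells. Each line gives the 250 bases before the transcription start from RefSeq (GRCm38.p6), 5′ to 3′ on the strand of the gene, and capitals mark matches to the motifs described next.
Jag1, chr2:137116521-137116770, minus strand: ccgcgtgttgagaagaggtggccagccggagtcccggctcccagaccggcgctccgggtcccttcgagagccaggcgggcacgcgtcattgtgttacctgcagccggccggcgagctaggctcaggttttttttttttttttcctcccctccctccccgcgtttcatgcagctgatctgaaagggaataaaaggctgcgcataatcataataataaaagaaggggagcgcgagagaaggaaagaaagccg
Jag2, chr12:112929496-112929745, minus strand: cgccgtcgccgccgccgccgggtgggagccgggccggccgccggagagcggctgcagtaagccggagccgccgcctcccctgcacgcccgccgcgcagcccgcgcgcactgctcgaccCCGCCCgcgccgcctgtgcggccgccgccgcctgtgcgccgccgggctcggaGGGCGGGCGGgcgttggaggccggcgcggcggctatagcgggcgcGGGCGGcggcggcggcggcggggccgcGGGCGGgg
Notch4, chr17:34564045-34564294, plus strand: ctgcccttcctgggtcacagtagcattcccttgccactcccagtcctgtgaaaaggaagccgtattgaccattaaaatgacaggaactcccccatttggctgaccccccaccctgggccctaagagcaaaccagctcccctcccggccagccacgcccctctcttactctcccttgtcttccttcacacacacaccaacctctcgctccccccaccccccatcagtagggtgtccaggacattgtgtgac
Dll4, chr2:119325534-119325783, plus strand: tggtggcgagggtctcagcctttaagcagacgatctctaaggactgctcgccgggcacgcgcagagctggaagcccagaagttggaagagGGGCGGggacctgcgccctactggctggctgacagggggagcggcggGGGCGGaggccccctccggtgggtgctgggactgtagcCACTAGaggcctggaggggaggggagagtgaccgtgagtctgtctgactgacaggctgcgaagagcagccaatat

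Of the 10 members, 8 had an entry in the promoter table, *Hes1* and *Hey1* being the others. Both strands were searched for the RBPJ site GTGGGAA, the E box CACGTG and the N box CACNAG that HES and HEY proteins bind, the ETS site CCGGAAG, the GC box GGGCGG and TATAAA. The *Jag2* window was 87.2% G and C and held 5 GC boxes, of which 2 overlap, while the *Jag1* window was 57.2% G and C and held no match to any of the 6 motifs. The *Dll4* window held 2 GC boxes and 1 N box, and the *Notch4* window none of the motifs. N boxes were also present in the windows of *Notch1* and *Notch2* (1 each) and *Notch3* (2), against 36.7% of promoters with at least 1. GC boxes were also present in the windows of *Notch1* and *Notch2* (5 each) and *Notch3* (4), against 32.7% of 32851 promoters with at least 1. No member window held the RBPJ site (5.42% of all promoters), the E box (6.02%), the ETS site (6.91%) or TATAAA (12.4%). These matches describe letters in 1 window per start site and say nothing about binding.

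In the gene annotation (GRCm39) *Notch1* lies on the minus strand of chromosome 2 from 26347915 to 26406675, *Notch2* on the plus strand of chromosome 3 from 97920800 to 98057677, *Jag1* on the minus strand of chromosome 2 from 136923373 to 136958693, and *Jag2* on the minus strand of chromosome 12 from 112871421 to 112893437. *Hes1* lies on the plus strand of chromosome 16 from 29882134 to 29886643. A value of a gene counts all UMIs assigned to the gene name, not a particular exon.

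The plates held 3054370 to 5346035 UMIs in dataset 1 and 10540256 to 12850942 in dataset 2, and the study kept 491 cells in 15 clusters and 3993 cells in 20 clusters. Well barcodes recur between plates by design, so that all 384 barcodes of dataset 2 occurred on more than 1 plate and a cell was identified by plate and barcode together. Cell type names of epithelial clusters were the study's, and their marker genes were checked. The parietal markers *Atp4a*, *Atp4b* and *Kcnq1* stood at 401 and 376 per 10000 UMIs in parietal cells and at 6.44 or less in the other epithelial types of dataset 2. The enterocyte markers *Alpi*, *Apoa1* and *Fabp2*, of which 2 had a UMI there, also stood high in parietal cells of dataset 2, at 89.2 and 87.8 per 10000 UMIs against 1.24 or less in its other epithelial types. *Apoa4* and *Apoa1* were among the 10 leading genes of parietal cluster 1, which held 458 of the 702 parietal cells and had 107 per 10000 of the enterocyte and 426 of the parietal markers. The part of these genes in the parietal results was not tested. In the cells called neck, however, the chief markers *Cblif*, *Pgc* and *Pga5* summed to 1478 and 1468 per 10000 UMIs, and the neck markers *Muc6*, *Tff2* and *Cftr* to 86.2 and 91.1, below the 189 and 188 of isthmus cells. *Muc6* was among the 10 leading genes of neck cluster 7, though not of clusters 0, 2 and 12, and it headed those of the dataset 1 neck cluster. The study reports RNA of *Pgc* in most gastric epithelial cells. Sums of 3 genes do not tell their members apart, and neck stands here for the study's clusters 0, 2, 7 and 12.

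The depth behind the 10 members differed widely. In the kept cells of dataset 2, *Hes1* had 32946 UMIs, *Notch1* 4025, *Jag1* 3000, *Notch2* 2132 and *Jag2* 1533, whereas *Hey1* had 129, *Notch4* 106, *Dll1* 103, *Dll4* 95 and *Notch3* 62. Levels are given below as counts per 1000000 UMIs (CPM), for the UMI sum of each type and pool, after scaling of the libraries. A difference is a log2 fold change with its standard error (SE), and its adjusted p comes from edgeR's quasi-likelihood test with Benjamini-Hochberg adjustment over all genes tested, with calls at 0.05. The clusters were made from these same counts, so that the p-values also reflect the clustering. Of the 10 members, 7 passed the filter on low counts in the test between epithelial types, and 6 of these differed between the 6 types, against 87.6% of all genes tested. *Hey1* had an adjusted p of 0.125, and *Notch3*, *Dll1* and *Dll4* did not pass the filter. *Notch4*, 1 of the 6, was above the filter's cut in only 4 of 12 sums, all in chief, mature pit and neck cells. *Hey1* was above it in 2 of 12, in isthmus and parietal cells. Calls of these 2 genes between types may therefore reflect how they entered the test.

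The receptor *Notch1* was highest in isthmus and neck cells and lowest in parietal cells. In isthmus cells, the study's progenitor clusters, it stood at 33.5 CPM in pool K and 33.1 CPM in pool T, and in neck cells at 30.6 and 32.6 CPM. Pre-pit cells had 23.2 and 18.4 CPM, mature pit cells 19.5 and 17.5 CPM, chief cells 12.3 and 21.2 CPM and parietal cells 8.78 and 9.24 CPM. The pools of pre-pit, mature pit and chief cells overlapped in this order, while isthmus and neck cells lay above and parietal cells below all of them.

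The receptor *Notch2* was lowest in parietal cells. Isthmus cells had 18.8 and 17.04 CPM in pools K and T, neck cells 17.3 and 16.3 CPM, pre-pit cells 16.9 and 14.8 CPM, mature pit cells 19.99 and 11.4 CPM and chief cells 11.7 and 11.9 CPM, each overlapping with the next type in the order. Parietal cells had 1.96 and 1.60 CPM and lay apart from all others. *Notch3* and *Notch4* were sparse. *Notch3* had at most 21 UMIs in any type and pool, and *Notch4* at most 18, with levels of 1.68 and 1.54 CPM in chief cells from 3 and 4 UMIs.

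The Jagged ligands followed different patterns. *Jag1* was measured in every epithelial type, from 24.1 and 35.6 CPM in mature pit cells and 26.5 and 23.3 CPM in parietal cells down to 11.7 and 10.8 CPM in chief cells. Between these lay pre-pit cells at 20.9 and 22.8 CPM, isthmus cells at 19.5 and 18.4 CPM and neck cells at 14.2 and 16.2 CPM. *Jag2* split the types in a different way. Mature pit cells had 25.4 and 18.5 CPM, pre-pit cells 15.4 and 17.8 CPM and isthmus cells 16.7 and 14.3 CPM, whereas neck cells had 3.82 and 3.61 CPM, parietal cells 1.60 and 1.38 CPM and chief cells 1.68 and 0.77 CPM. No pool of the first 3 types overlapped with any pool of the last 3. The Delta ligands were sparse in the epithelial types, *Dll1* with at most 12 UMIs in a type and pool and *Dll4* with at most 19.

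**Figure D1:**
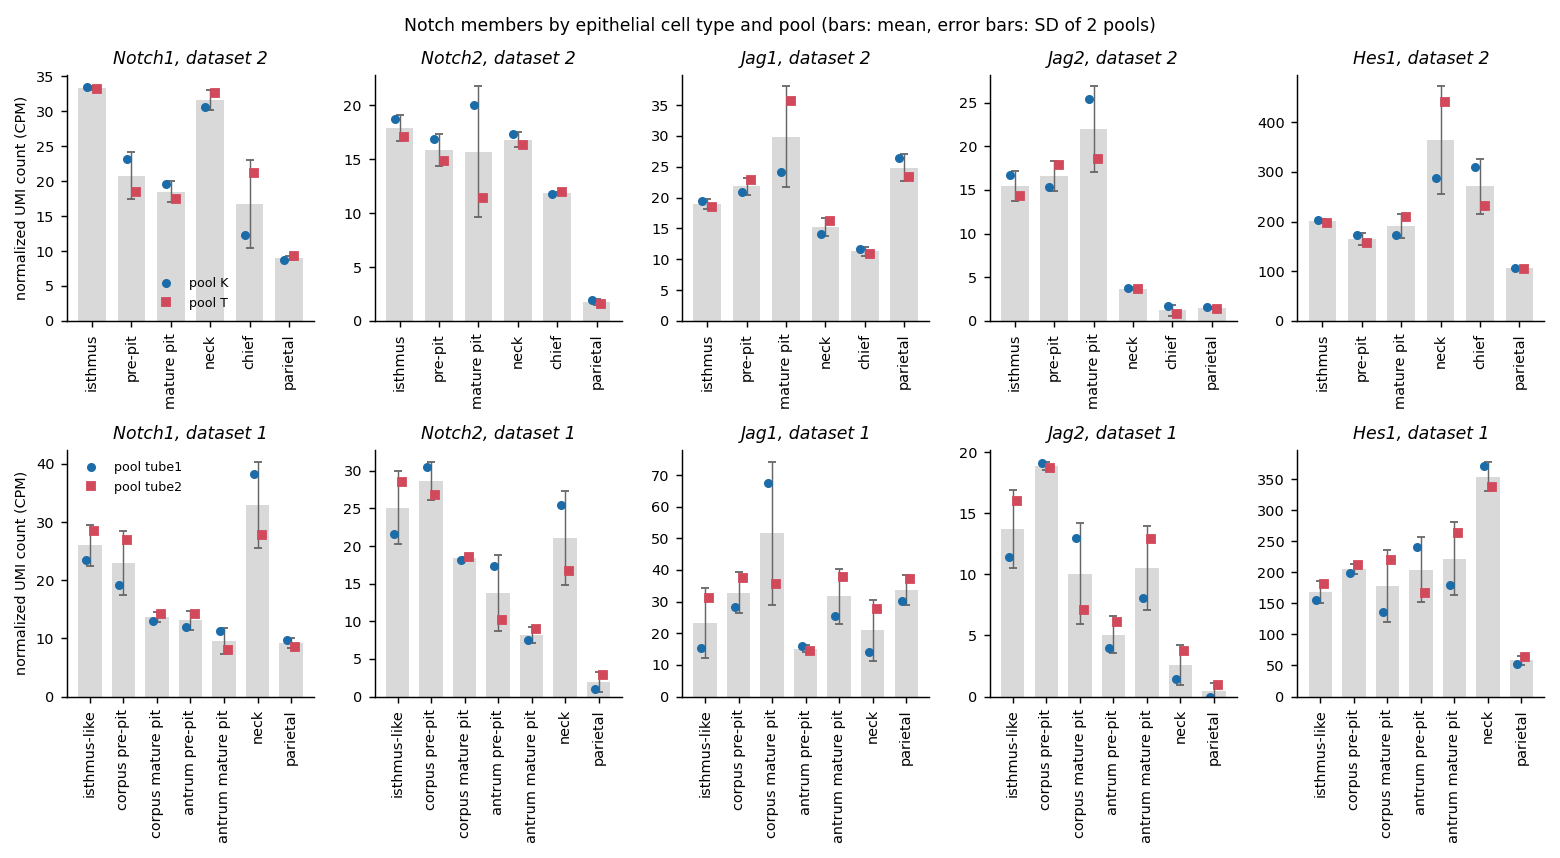
Levels (CPM, linear axes from 0) of the 5 members with the most UMIs in the epithelial types of dataset 2 (upper panels) and dataset 1 (lower panels), with bars for the mean of the pools, error bars for their SD (n = 2) and 1 point per pool. In dataset 2, *Jag2* lies between 14.3 and 25.4 CPM in pit, pre-pit and isthmus cells and at or below 3.82 CPM in neck, parietal and chief cells, while *Jag1* spans 10.8 to 35.6 CPM over all 6 types.

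The target gene *Hes1* was highest in neck and chief cells and lowest in parietal cells. Neck cells had 287 and 441 CPM in pools K and T, chief cells 310 and 232 CPM, isthmus cells 204 and 198 CPM, mature pit cells 174 and 209 CPM, pre-pit cells 173 and 157 CPM and parietal cells 107 and 104 CPM. The pools of neck and chief cells overlapped, as did those of isthmus and mature pit cells. *Hey1*, the other target, had 1.13 and 1.67 CPM in parietal cells from 19 and 23 UMIs, against 0.237 and 0.864 CPM in isthmus cells from 7 and 32 UMIs.

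From isthmus to neck cells, *Jag2* fell, *Jag1* fell slightly and *Hes1* rose. *Jag2* decreased by 2.05 ± 0.18 (SE) on the log2 scale (adjusted p = 5.7e-07). *Jag1* decreased by 0.32 ± 0.13 (adjusted p = 0.049), a call that was lost without pool K (log2 difference -0.20, adjusted p = 0.42), without pool T (adjusted p = 0.064) and with DESeq2 (adjusted p = 0.0712). *Hes1* increased by 0.86 ± 0.17 (adjusted p = 8.0e-04), with 1.14 without pool K and 0.48 without pool T. These were 3 of the 7 members tested, and 50.7% of all genes were called in this comparison. *Notch1* and *Notch2*, with log2 differences of -0.08 and -0.09, were not called.

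Among the 4 neck clusters, *Hes1* was highest in cluster 0. Levels of clusters, here and below, were scaled apart from those of types and cannot be set against them. Chief cells (cluster 10) therefore have other values here than above. Cluster 0 had 810 and 742 CPM, while the neck clusters 12, 7 and 2 had 221 and 294, 197 and 225, and 212 and 198 CPM, against 210 to 265 CPM in isthmus clusters 3, 5, 6 and 9. When cluster 0 was left out of the neck cells, an alternative chosen after its values were seen, the log2 difference of *Hes1* from isthmus cells was -0.14 with an adjusted p of 0.339. Cluster 0 supplied 135 of 644 neck cells in pool K and 336 of 603 in pool T, the pool in which *Hes1* of neck cells was higher. Cluster 11, the isthmus cluster whose cells were mostly in G1 phase (85.5%), was next in *Hes1*, with 397 and 334 CPM, followed by chief cells (cluster 10) with 372 and 282 CPM. The 10 leading genes of cluster 11 were headed by *Cym* and included the keratin genes *Krt5*, *Krt14*, *Krt17* and *Krt15*.

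The same clusters stood apart in 8 immediate early genes, *Fos*, *Fosb*, *Jun*, *Junb*, *Egr1*, *Atf3*, *Ier2* and *Ier3*, which are known to be switched on within minutes by many stimuli, tissue dissociation among them. This list was chosen after the values of the clusters were seen. The 8 genes together had 140 and 152 UMIs per 10000 in cluster 0 and 103 and 89.7 in cluster 11. In the other neck clusters they had between 6.40 and 17.6, in chief cells 26.97 and 41.1, and in the other isthmus clusters between 20.3 and 59.4. Their part in the *Hes1* level was not tested. *Notch1* was also higher in cluster 0, at 49.0 and 44.4 CPM against 28.7 to 37.1 CPM in the other neck clusters, whereas *Jag2* was low in all 4, from 2.97 to 5.54 CPM.

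**Figure D2:**
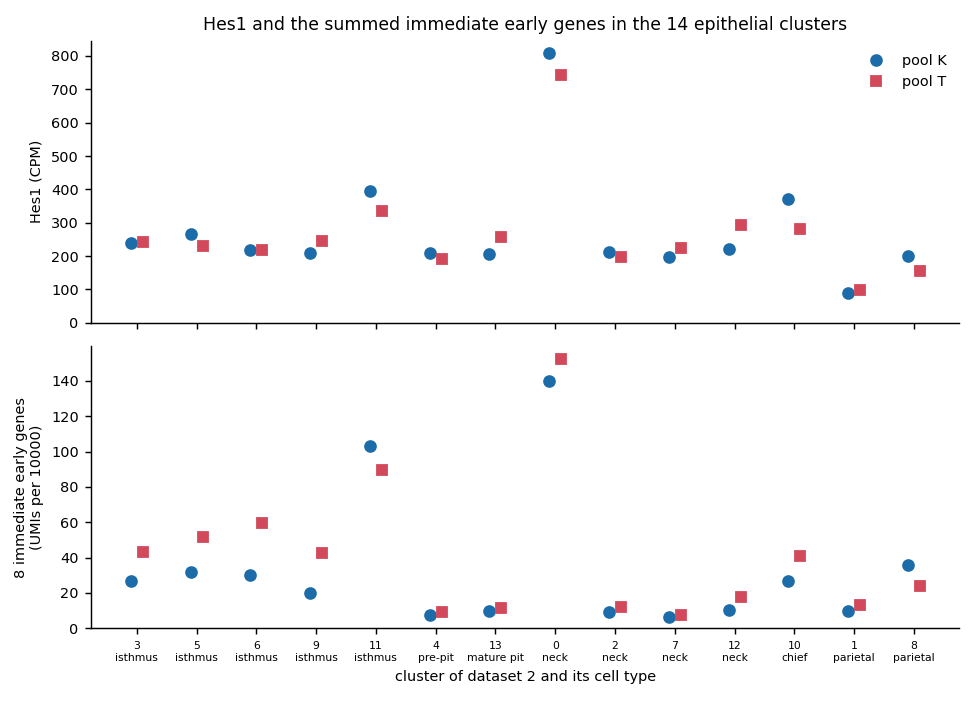
Level of *Hes1* (CPM, upper panel) and summed UMIs of the 8 immediate early genes per 10000 UMIs (lower panel) in the 14 epithelial clusters of dataset 2, with 1 point per pool. Neck cluster 0 lies at 742 to 810 CPM of *Hes1* and isthmus cluster 11 at 334 to 397 CPM, and these clusters also hold the most immediate early gene UMIs.

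The step from isthmus to pre-pit cells changed 1 of the 7 members tested, against 27.8% of all genes. *Notch1* decreased by 0.69 ± 0.14 (adjusted p = 0.0024), and this call was lost without pool T (log2 difference -0.52, adjusted p = 0.16). *Jag2* (log2 difference 0.11 ± 0.17) and *Hes1* (-0.29, adjusted p = 0.243) were not called, although *Hes1* passed without the filter on low counts (adjusted p = 0.00788) and with total UMIs as the scale (adjusted p = 0.0332). Between pre-pit and mature pit cells edgeR called 0 of the 7 members, against 10.4% of all genes. An unadjusted p under 0.05, which is not a call, was found for 2 members, and the share of all genes at that cut was not counted. DESeq2 also called 0, with no adjusted p for 2 of the 7, and its share of all genes is not given here. The members with an unadjusted edgeR p under 0.05 were *Jag1* and *Notch4*. *Jag1* had a log2 difference of 0.47 ± 0.18 (p = 0.019, adjusted p = 0.11) and higher values for mature pit cells in both pools. *Notch4* had 2 and 5 UMIs in mature pit cells against 2 and 1 in pre-pit cells.

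Parietal cells, which secrete acid, differed most from isthmus cells. Of the 7 members tested, 6 were called, against 71.8% of all genes. *Jag2* decreased by 3.35 ± 0.21 (adjusted p = 3.8e-09), *Notch2* decreased by 3.31 ± 0.20 (adjusted p = 2.6e-09) and *Notch1* decreased by 1.89 ± 0.13 (adjusted p = 1.5e-08). *Hes1* decreased by 0.93 ± 0.17 (adjusted p = 2.2e-04). These 4 members were lower in both pools, without overlap, and the share of all genes without overlap was not counted. *Notch3*, which was below the filter, had 0 and 2 UMIs in parietal cells and 11 and 21 in isthmus cells, a ratio of 7.36 with a 95% counting interval from 1.88 to 63.4. *Hey1* rose by 1.26 ± 0.52 (adjusted p = 0.042), from few UMIs, and the call was lost with DESeq2 (adjusted p = 0.135) and with total UMIs as the scale (adjusted p = 0.188). It is 1 of the 6 calls and passed the filter through 2 of 12 sums, in isthmus and parietal cells, so that the call may reflect its entry.

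The ligand *Jag1* had a positive difference in parietal cells that depended on the scaling. It was called higher by 0.39 ± 0.12 (adjusted p = 0.011), but the direction turned to -0.11 (adjusted p = 0.40) when each library was scaled to its total UMIs, and the call was lost without pool K (adjusted p = 0.19) and without pool T (adjusted p = 0.075). On that scale the median of all genes shifted from -0.05 to -0.55, so that *Jag1* lay above the median under both. Within parietal cells, cluster 8 had 42.0 and 33.4 CPM of *Jag1* and cluster 1 had 26.3 and 23.2 CPM. *Hes1* was also higher in cluster 8, at 200 and 156 CPM against 89.4 and 97.9 CPM. The 8 immediate early genes had 36.1 and 23.9 UMIs per 10000 in cluster 8 and 9.69 and 13.2 in cluster 1. Their part in these levels was not tested.

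Chief cells, which store pepsinogen, had less *Notch1* and less *Jag2* than neck cells. Of 7 members, 2 were called, against 38.6% of all genes. *Notch1* decreased by 0.86 ± 0.18 (adjusted p = 0.0020), with log2 differences of -1.36 and -0.61 when 1 pool was left out. *Jag2* decreased by 1.69 ± 0.48 (adjusted p = 0.013) from 68 and 60 UMIs in neck cells to 3 and 2 UMIs in chief cells, and this call was lost without pool T (log2 difference -1.23, adjusted p = 0.23). *Hes1*, with a log2 difference of -0.43 ± 0.17 (adjusted p = 0.0668), was not called, but its call and direction moved with the alternatives. With the pool as a block the adjusted p was 0.0418, and without neck cluster 0 the difference was 0.58 (adjusted p = 0.00175). It was -0.91 (adjusted p = 0.000507) without pool K and 0.07 (adjusted p = 0.785) without pool T. With total UMIs as the scale the median of all genes shifted from -0.07 to -0.89 in this comparison, and the direction of both called members stayed the same.

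**Figure D3:**
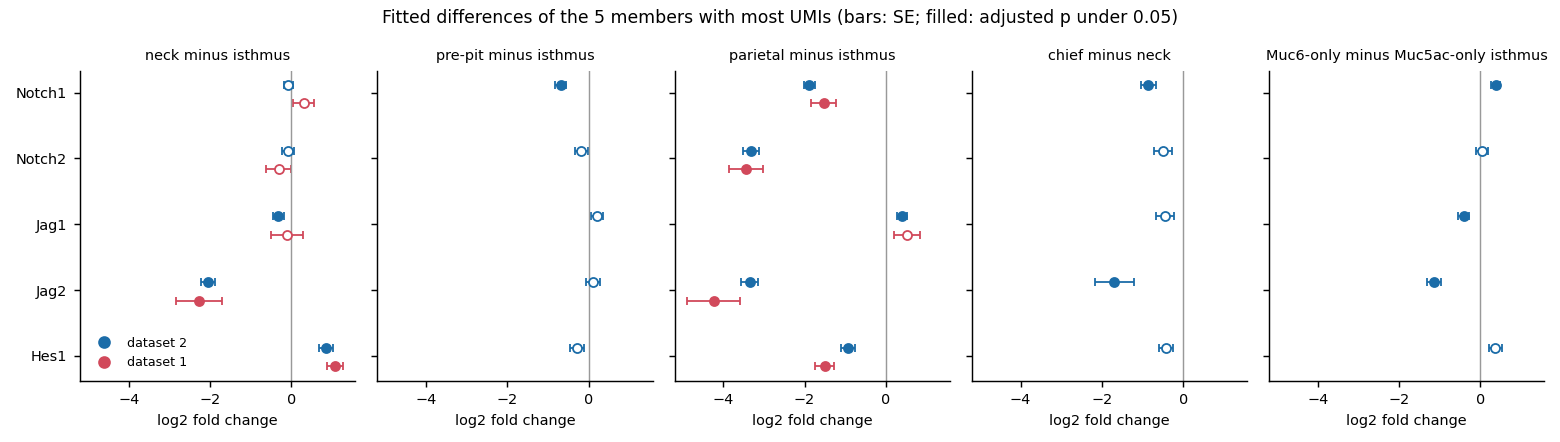
Fitted log2 differences of the 5 members with the most UMIs in 5 comparisons (neck, pre-pit and parietal against isthmus cells, chief against neck cells, and *Muc6*-only against *Muc5ac*-only isthmus cells), with bars for the SE and filled symbols for calls. Values of dataset 2 are blue, and those of dataset 1 are red where the comparison was made there, with *Jag2* in parietal cells resting on 2 UMIs. In dataset 2, parietal cells lie lower than isthmus cells for *Notch1*, *Notch2*, *Jag2* and *Hes1*, and the positive value of *Jag1* there turns to -0.11 with total UMIs as the scale.

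Among isthmus cells, *Notch1* was higher in clusters 5 and 6 than in clusters 3, 9 and 11. The cells of cluster 5 were all in G2/M phase by the study's assignment and those of cluster 6 in G2/M (52.6%) or S (47.4%), while cluster 3 was in S (100%), cluster 9 mostly in G2/M (89.9%) and cluster 11 mostly in G1 (85.5%), so that the comparison is not one of phases. Of the 9 members tested, *Notch4*, *Dll1*, *Dll4* and *Hey1* passed the filter only through clusters outside the epithelial types. They had 0 of 28 epithelial sums above its cut, so that the count cannot be read against the share of all genes. *Notch1* was 45.4 and 47.3 CPM in clusters 5 and 6 and 39.4 and 34.3 CPM in clusters 3, 9 and 11. This difference of 0.35 ± 0.10 (adjusted p = 0.0078) was the only call among the 9, against 23% of all genes. It was lost without pool T (log2 difference 0.20, adjusted p = 0.50). *Notch2*, with a difference of 0.33 ± 0.13, had an adjusted p of 0.0518, and of 0.0134 with the pool as a block. The block also brought *Jag2* (0.33, adjusted p = 0.0387) and *Hes1* (-0.22, adjusted p = 0.0262) past the threshold, at which *Jag2* (adjusted p = 0.114) and *Hes1* (adjusted p = 0.0636) were not called without it. *Jag2* had 34.5 and 27.9 CPM in cluster 6 and 19.7 and 23.0 CPM in cluster 3 against 13.6 and 11.5 CPM in cluster 5 and 13.7 and 9.50 CPM in cluster 9. Cluster 11 had 21.1 and 11.8 CPM and overlapped with clusters 3, 5 and 9. The part of cluster 11, with its keratin genes, in this comparison was not tested.

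Isthmus cells that carried the pit mucin *Muc5ac* and those that carried the neck mucin *Muc6* differed in the Jagged ligands. The cut for each mucin was set at the 95th percentile of its share of UMIs in parietal cells, and gave 580 cells with *Muc5ac* only and 423 with *Muc6* only, while 215 carried both and 67 neither. Of 1285 isthmus cells, 85 lay within 1.5-fold of the cut for *Muc5ac* and 158 within 1.5-fold of that for *Muc6*, and the median depth was 41721 UMIs in the former class and 33589 in the latter. *Jag2* was 9.12 and 9.63 CPM in *Muc6*-only cells and 22.9 and 18.7 CPM in *Muc5ac*-only cells, a decrease of 1.14 ± 0.17 (adjusted p = 1.5e-04) that was called under every alternative. *Jag1* decreased by 0.41 ± 0.14 (adjusted p = 0.038), and *Notch1* increased by 0.37 ± 0.12 (adjusted p = 0.032), at 39.7 and 41.1 CPM against 32.2 and 30.3 CPM. Both calls were lost without either pool, and that of *Jag1* also with DESeq2 (adjusted p = 0.0997), RLE size factors (adjusted p = 0.0569) and total UMIs as the scale (adjusted p = 0.215). In all, 3 of 6 members were called, against 28.5% of genes. *Hes1*, at 245 and 247 CPM against 192 and 189 CPM, did not overlap between the classes but had an adjusted p of 0.102. It was called without the filter on low counts (adjusted p = 0.00181), with total UMIs as the scale (adjusted p = 0.0132) and with the 99th percentile as the mucin cut (adjusted p = 0.0283).

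**Figure D4:**
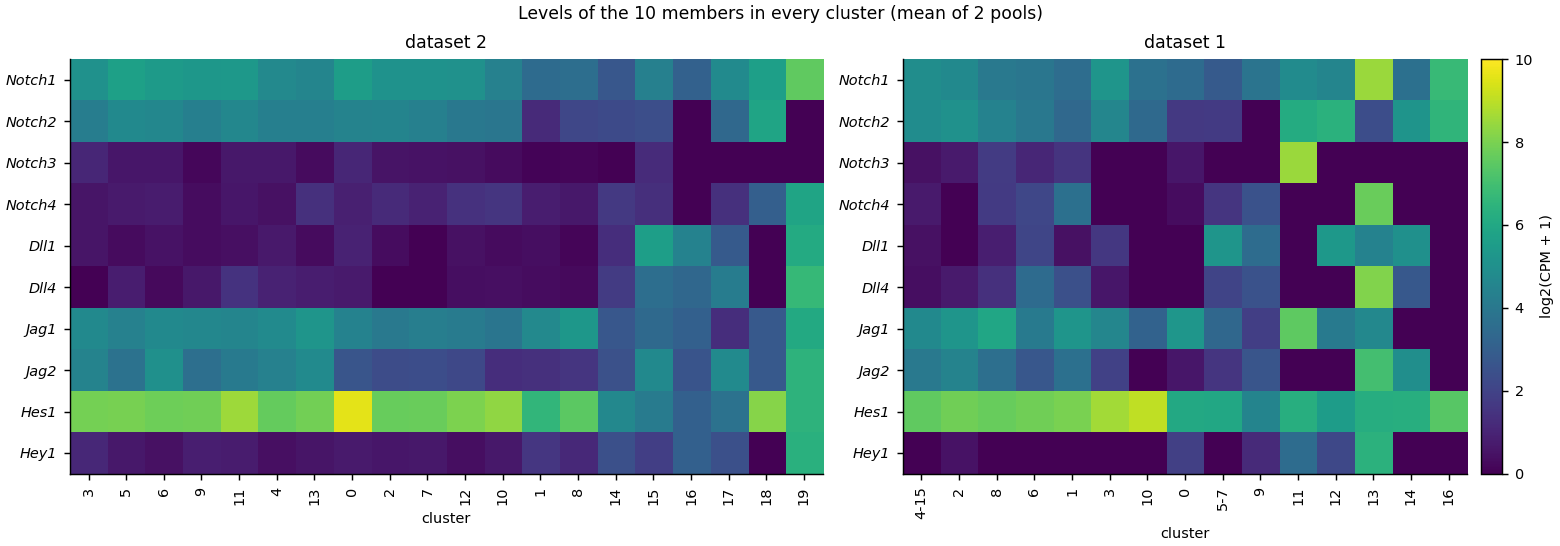
Mean level over the pools of the 10 members in all 20 clusters of dataset 2 and all 15 clusters of dataset 1, as log2(CPM + 1). *Notch4*, *Dll4* and *Hey1* are highest in the endothelial-like clusters of each dataset, and *Hes1* is lowest in clusters 14 to 17 of dataset 2.

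In endocrine and tuft-like cells *Hes1* was low, and UMIs of the Delta ligands *Dll1* and *Dll4* were found. The 6 small clusters of dataset 2 were named from their marker genes: cluster 14 as ECL-like (53 cells), cluster 15 as tuft-like (32 cells), cluster 16 as D-like (31 cells), cluster 17 as X/A-like (29 cells), cluster 18 as macrophage-like (13 cells) and cluster 19 as endothelial-like (9 cells). Each was compared with the mean of the 14 epithelial clusters. *Notch4*, *Dll1*, *Dll4* and *Hey1* passed the filter of this fit only through the small clusters, with 0 of 28 epithelial sums above its cut. A gene that enters in this way has to differ, so no test is given for these 4 genes there, and their ratios of summed UMIs carry counting intervals only. These ratios, and bounds on them, set a cluster against the UMIs pooled over the 14 epithelial clusters, not against the mean of the clusters. The other 5 members tested passed on the epithelial clusters alone.

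The target *Hes1* stood at 275 and 265 CPM in the epithelial mean. It was 21.1 and 27.5 CPM in ECL-like, 21.3 and 12.4 CPM in tuft-like, 5.01 and 9.74 CPM in D-like and 8.99 and 16.1 CPM in X/A-like cells, so that it fell by 3.30 to 4.93 on the log2 scale. All 4 decreases were called, also without either pool. In macrophage-like cells *Hes1* had 270 and 303 CPM and was not called.

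Tuft-like cells, chemosensory cells of the epithelium, held 34 of the 103 *Dll1* UMIs of all kept cells of dataset 2, found in 13 of the 32 cells. Pools K and T had 22 and 12 of these UMIs (58.6 and 37.2 CPM) against 0.270 and 0.404 CPM in the epithelial mean. The ratio to the pooled epithelial clusters was 131 with a 95% interval from 81.6 to 209. The smooth muscle gene *Acta2* was among the leading genes of this cluster. The 26 cells with tuft markers alone held 33 of the 34 *Dll1* UMIs, among 462806 UMIs of all genes. The 5 cells with stromal markers held 0 but were few and shallow. Their UMIs of all genes were 15635 in the 2 with tuft markers as well and 22559 in the other 3. The part of stromal cells in the *Dll1* value was not tested. *Dll4* had 6 and 2 UMIs (16.0 and 6.21 CPM), a ratio of 24.9 (10.3 to 52.4). *Jag2* (26.7 and 24.8 CPM) rose by 1.82 ± 0.44, a call that was lost without pool K (adjusted p = 0.064) and without pool T (adjusted p = 0.053). *Jag1* decreased by 1.16 ± 0.44 (adjusted p = 0.0492), a call that was lost under every alternative, without pool K (-1.81), without pool T (-0.75) and with the pool as a block (-1.17, adjusted p = 0.0516) among them. With *Hes1*, 3 of the 5 members were called, against 27.9% of all genes.

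The endocrine clusters shared low *Jag1* and differed in their other ligands. X/A-like cells, which make ghrelin, had 4 and 7 UMIs of *Dll4* (11.98 and 22.5 CPM), a ratio of 37.0 (17.5 to 71.3) to the pooled epithelial clusters. *Jag2* had 23.96 and 28.9 CPM there, an increase of 1.85 ± 0.45 that was lost without pool T (adjusted p = 0.083), and *Jag1* had 1 UMI in pool K and 0 in pool T. D-like cells, which make somatostatin, had 7 and 2 UMIs of *Dll1* (35.1 and 6.50 CPM), a ratio of 47.7 (20.5 to 98.6). They had 0 UMIs of *Notch2* in both pools, which against the floor of 3 UMIs over the group was at least 2.89-fold lower than the pooled epithelial clusters, and 3 and 0 UMIs of *Notch1*. ECL-like cells, which release histamine, had 5.27 and 5.78 CPM of *Notch1* (log2 difference -2.35 ± 0.43, adjusted p = 1.7e-05) and the same values of *Jag1* (-2.01 ± 0.40, adjusted p = 5.2e-05).

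Of the 5 members that passed on the epithelial clusters, 4 were called in ECL-like cells, 4 in D-like cells and 3 in X/A-like cells, against 46.4%, 36.7% and 39.6% of all genes. In ECL-like cells *Notch2* (1 and 4 UMIs) was among them and lost its call without pool K (log2 difference -1.17, adjusted p = 0.30). In D-like cells *Jag1* (1 and 3 UMIs) lost its call without either pool and with DESeq2, RLE size factors, total UMIs as the scale or no filter. The remaining Delta ligand and *Hey1* values were of few UMIs. *Hey1* had 1 and 5 UMIs in ECL-like and 1 and 3 in D-like cells, *Dll4* 1 and 2 in ECL-like and 1 and 4 in D-like cells, and *Dll1* 2 and 2 in X/A-like cells.

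In endothelial-like cells *Notch1*, *Notch4* and *Dll4* were high. The 9 cells of cluster 19 had 188 and 182 CPM of *Notch1*, 62.7 and 49.6 CPM of *Notch4* and 104 and 99.3 CPM of *Dll4*, against epithelial means of 31.7 and 30.7, 0.821 and 0.988, and 0.535 and 0.419 CPM. *Notch1* increased by 2.69 ± 0.44 (adjusted p = 1.2e-05) and was called also without either pool. *Dll4* had 5 and 6 UMIs, a ratio of 220 (104 to 425), and *Notch4* 3 UMIs in each pool, a ratio of 72.9 (26.1 to 165). *Dll1* had 1 and 7 UMIs (20.9 and 116 CPM) and *Hey1* 7 and 1 UMIs (146 and 16.5 CPM). The cells were shallow, with a median of 7819 UMIs. In this cluster the median log2 difference of all genes was -1.46, and in cluster 18 it was -1.01, so that the differences here are relative to a lower base.

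*Jag2* (41.8 and 132 CPM, from 2 and 8 UMIs) was called higher in endothelial-like cells, a call that was lost without pool T (adjusted p = 0.41). *Hes1*, at 41.8 and 132 CPM, decreased by 1.39 ± 0.43 (adjusted p = 0.020), a call lost without pool K (log2 difference -0.83, adjusted p = 0.41), with RLE size factors (adjusted p = 0.25), with total UMIs as the scale (adjusted p = 0.623) and with DESeq2 (adjusted p = 0.16). *Jag1*, at 83.6 and 49.6 CPM from 4 and 3 UMIs, had an adjusted p of 0.0884 and was called with those 3 alternatives (adjusted p from 0.0028 to 0.0259). *Notch2* had 0 UMIs in both pools. In all, 3 of the 5 members were called, against 16.9% of all genes. In macrophage-like cells *Notch2* was the only one of the 5 called, against 20.4% of all genes, with 70.4 and 43.3 CPM from 6 and 3 UMIs, an increase of 2.02 ± 0.61 (adjusted p = 0.014) that was lost without pool K (adjusted p = 0.42) and without pool T (adjusted p = 0.052).

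Dataset 1, from other mice and from corpus and antrum units together, gave similar comparisons with fewer cells: 53 isthmus-like, 45 neck and 57 parietal cells. In dataset 1, 5 members passed the filter, *Notch1*, *Notch2*, *Jag1*, *Jag2* and *Hes1*, and all 5 differed between the 7 epithelial types (background 77.7%). *Hes1* was 371 and 337 CPM in neck cells of tube1 and tube2 and 155 and 181 CPM in isthmus-like cells, an increase of 1.07 ± 0.20 (adjusted p = 5.0e-04). *Jag2* was 1.42 and 3.71 CPM in neck cells and 11.5 and 16.0 CPM in isthmus-like cells, a decrease of 2.28 ± 0.58 (adjusted p = 0.0057) that was lost without tube1 or tube2 and with DESeq2 (adjusted p from 0.053 to 0.081). These were 2 of 5 members, against 29.3% of genes. The neck cells of dataset 1 formed a single cluster, and their immediate early genes were not counted.

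In parietal cells of dataset 1, *Jag2* had 0 and 2 UMIs against 18 and 32 in isthmus-like cells, a ratio of 21.9 with a 95% interval from 5.77 to 186, which like the other intervals covers counting error only. *Notch2* (0.974 and 2.85 CPM against 21.6 and 28.5 CPM) decreased by 3.45 ± 0.42 (adjusted p = 9.6e-07), *Hes1* (52.6 and 63.6 CPM against 155 and 181 CPM) decreased by 1.51 ± 0.22 (adjusted p = 1.1e-05) and *Notch1* (9.74 and 8.54 CPM against 23.6 and 28.5 CPM) decreased by 1.53 ± 0.30 (adjusted p = 2.1e-04). Together with *Jag2*, 4 of 5 members were called, all lower, against 60.3% of genes. *Jag1* was 30.2 and 37.0 CPM in parietal cells and 15.3 and 31.01 CPM in isthmus-like cells, overlapping between the types, with a log2 difference of 0.53 ± 0.32 (adjusted p = 0.16). *Hey1* had 2 and 6 UMIs in parietal cells and 0 in isthmus-like cells, which was below the filter.

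Pit cells of the corpus and the antrum were compared within dataset 1. *Notch2* was 24.3 and 22.7 CPM in corpus pit cells and 12.4 and 9.57 CPM in antrum pit cells, a difference of 1.09 ± 0.28 (adjusted p = 0.016) that was lost without either tube and with DESeq2 (adjusted p from 0.15 to 0.24). It was the only call of 5 members (background 9.24%). *Jag1*, at 47.9 and 36.5 CPM against 20.7 and 26.0 CPM, did not overlap between the regions and had an adjusted p of 0.0586, and of 0.0409 with the pool as a block. The antrum pre-pit cluster was led by *Zg16*, *Muc2* and *Tff3*, which are genes of goblet cells, and the part of such cells in these values was not tested.

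*Notch4* and *Dll4* had the opposite order in the pit cells. Antrum mature pit cells had 24 and 6 UMIs of *Notch4* (14.9 and 5.97 CPM) in 18 of 49 cells, at most 6 in a cell, and antrum pre-pit cells had 3 and 1 UMIs. Corpus mature pit cells had 3 and 0 UMIs and corpus pre-pit cells 0. *Dll4* had 11 and 10 UMIs in antrum pit cells and 0 and 3 in corpus pit cells. In the antrum, 5 and 6 of its UMIs (6.65 and 12.2 CPM) lay in pre-pit cells, in 6 cells and up to 4 in a cell. Antrum mature pit cells had 6 and 4 (3.73 and 3.98 CPM). The part of cells with goblet genes in the pre-pit cluster was not tested for *Dll4* either. Both genes were below the filter. The summed UMIs of antrum over corpus pit cells gave a ratio of 10.99 for *Notch4* (95% counting interval from 3.46 to 55.9) and of 6.79 for *Dll4* (2.03 to 35.5). The endothelial markers *Pecam1*, *Cdh5* and *Kdr* together had 0.0053 and 0 UMIs per 10000 in antrum mature pit cells, with 2 of the 3 at 0.

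The small clusters of dataset 1 held stromal and vascular cells, for which values are given without a test. *Notch3*, a receptor of mural cells, was found almost only in the 18 smooth muscle-like cells of cluster 11, with 26 and 57 UMIs (317 and 405 CPM), or 83 of its 95 UMIs in dataset 1, but these came from 5 cells and up to 28 from 1 cell. The same cluster had 256 and 114 CPM of *Jag1*, the highest level of that ligand in either pool of any cluster of dataset 1. The 15 endothelial-like cells of cluster 13 had 382 and 339 CPM of *Notch1*, 223 and 198 CPM of *Notch4*, 334 and 215 CPM of *Dll4*, 175 and 82.6 CPM of *Jag2* and 79.6 and 90.9 CPM of *Hey1*. Hemoglobin genes led this cluster, with *Kdr* and *Cdh5* also among its 10 leading genes, and its median depth was 8472 UMIs.

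In dataset 1, *Dll1* had 78 UMIs in 10 of the 15 clusters, and the pools of the 3 clusters with the highest mean overlapped. Enterocyte-like cells (cluster 5-7, 70 cells) had 28.9 and 44.3 CPM from 9 and 35 UMIs in 27 cells, and fibroblast-like cells (cluster 12, 15 cells) had 24.2 and 55.4 CPM from 2 and 8 UMIs in 9 cells. Cluster 14, which mixed mast cell genes with the tuft gene *Trpm5* and was left unnamed, had 62.8 and 0 CPM from 5 and 0 UMIs in 3 of 12 cells. *Notch2* was 60.5 and 104 CPM in fibroblast-like, 60.9 and 78.2 CPM in smooth muscle-like and 97.4 and 87.4 CPM in macrophage-like cells (cluster 16, 8 cells), above all epithelial clusters of dataset 1. The chief-like cells of cluster 10 had 524 and 540 CPM of *Hes1*.

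**Figure D5:**
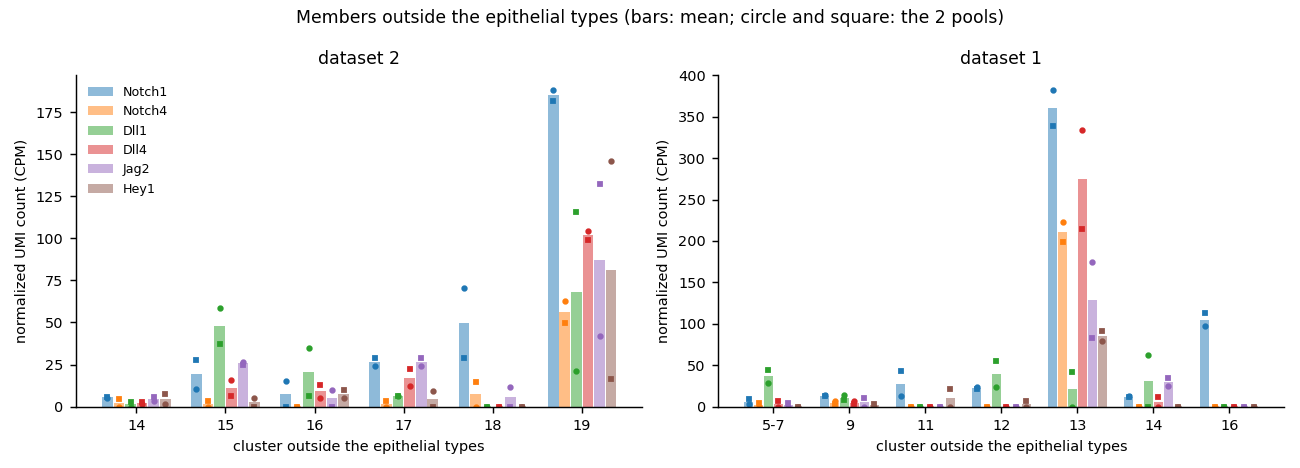
Levels (CPM, linear axes) of *Notch1*, *Notch4*, *Dll1*, *Dll4*, *Jag2* and *Hey1* in clusters 14 to 19 of dataset 2 and in clusters 5-7, 9, 11, 12, 13, 14 and 16 of dataset 1, with bars for the mean and 1 symbol per pool. *Dll4* and *Notch4* are highest in the endothelial-like cluster of each dataset, and *Dll1* in the tuft-like and endothelial-like clusters of dataset 2.

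The genes with the most similar profile over the 20 clusters of dataset 2 were sought among 13759 genes with at least 100 UMIs, by Pearson's r of log2(CPM + 1). For *Notch1* these were *Rbms1* (r = 0.88) and *Pkn3* (r = 0.87), for *Notch2* *Metrnl* (r = 0.95) and *Nr2c2ap* (r = 0.91), for *Jag1* *Polg* (r = 0.92) and *Cavin1* (r = 0.91), for *Jag2* *Tpm4* (r = 0.87) and *Samd9l* (r = 0.85), and for *Hes1* *Cdk6* (r = 0.90) and *Frmd4b* (r = 0.89). The sparse members had higher values, namely *Notch4* with *Tnfsf10* (r = 0.98) and *Zbtb46* (r = 0.94), *Dll1* with *Fstl1* (r = 0.98) and *Mxra8* (r = 0.94), and *Hey1* with *Podxl* (r = 0.96) and *Adgrf5* (r = 0.94). Clusters share libraries and differ in depth, and for the sparse genes the small shallow clusters set the value.

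Of 55 other genes of the pathway, 41 were tested between the epithelial types of dataset 2, and 38 differed, against 87.6% of all genes tested. From isthmus to neck cells 16 rose and 5 fell, against 26.4% higher and 24.3% lower among all genes tested. Their median log2 difference was 0.26, and that of all genes 0.06. The protease *Furin*, which makes the first cut in the Notch receptor and in many other proteins, rose from 17.4 and 12.9 CPM to 292 and 440 CPM, by 4.60 ± 0.22 (adjusted p = 1.4e-09). *Neurl1b*, a ubiquitin ligase for Notch ligands, fell by 4.01 ± 0.27 (adjusted p = 4.3e-08), and *Nrarp*, a target that dampens the pathway, fell from 26.1 and 30.6 CPM to 4.998 and 8.49 CPM, and so decreased by 2.08 ± 0.22 (adjusted p = 4.0e-06).

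In pre-pit against isthmus cells, 4 of the other pathway genes rose and 4 fell, against 12.3% and 15.5% of all genes. *Mib2* (log2 difference 0.61 ± 0.14) and the protease *Adam10* (0.50 ± 0.09) rose, and *Neurl1b* (-3.55 ± 0.35) and the glycosyltransferase *Lfng* (-1.13 ± 0.37) fell. From pre-pit to mature pit cells *Itch* rose (0.47 ± 0.12) and *Sox9* fell (-0.53 ± 0.11), and no other was called, against 6.52% higher and 3.84% lower among all genes.

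In parietal cells 14 rose and 17 fell, against 35.2% and 36.7% of all genes, and their median log2 difference was -0.12 against -0.05. The gamma-secretase subunit *Aph1c* rose from 1.19 and 1.38 CPM in isthmus cells to 29.7 and 30.5 CPM, by 4.53 ± 0.20 (adjusted p = 1.1e-10), and *Furin* by 3.67 ± 0.21. *Nrarp* decreased by 4.998 ± 0.31 (adjusted p = 3.6e-09), and *Numbl* had 0 UMIs in both pools, at least 8.13-fold lower. In chief cells 8 rose and 10 fell relative to neck cells, against 18.6% and 19.9% of all genes, with a median of -0.10 against -0.07. *Furin* reached 9772 and 11170 CPM there, an increase of 4.84 ± 0.21 (adjusted p = 1.5e-09), *Rfng* rose by 0.84 ± 0.12, *Id1* decreased by 3.23 ± 0.30 and *Nrarp* by 1.88 ± 0.58.

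Within the isthmus, clusters 5 and 6 had 5 higher and 6 lower of 46 other pathway genes tested, against 14.2% and 8.76% of all genes. Of the 46, 7 passed the filter only through clusters outside the epithelial types, so that these counts cannot be read against the shares. Among the calls were *Neurl1b* (25.4 and 23.0 CPM against 3.85 and 2.80 CPM, 3.09 ± 0.23), *Lfng* (0.88 ± 0.28), *Tle2* (-0.70 ± 0.20) and *Psen2* (-0.64 ± 0.09). *Muc6*-only cells had 7 higher and 2 lower than *Muc5ac*-only cells, against 13.3% and 15.1% of all genes. *Furin* (1.68 ± 0.26) and *Aph1c* (1.41 ± 0.36) rose, and *Id1* (-0.75 ± 0.21) and *Adam10* (-0.46 ± 0.09) fell.

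In the small clusters the calls among 46 other pathway genes were 15 higher and 8 lower in ECL-like, 13 and 4 in tuft-like, 15 and 6 in D-like, 11 and 7 in X/A-like, 7 and 2 in macrophage-like and 5 and 3 in endothelial-like cells. The shares of all genes called higher and lower were 22.9% and 23.5% in ECL-like, 13.8% and 14.1% in tuft-like, 18% and 18.8% in D-like, 18.9% and 20.7% in X/A-like, 9.26% and 11.1% in macrophage-like and 6.56% and 10.4% in endothelial-like cells. Tuft-like cells had 64.0 and 77.6 CPM of the glycosyltransferase *Mfng*, from 24 and 25 UMIs against 2 and 1 UMIs in all epithelial clusters. Of these 46 genes, 7 passed the filter only through the small clusters, so that they have to differ there. The counts above include these 7 and therefore cannot be read against the shares of all genes. *Neurod1*, an endocrine bHLH factor, had 461 and 412 CPM in D-like and 383 and 228 CPM in X/A-like cells against at most 0.204 CPM in the epithelial mean. *Neurl1a* had 204 and 176 CPM in ECL-like and 95.9 and 96.4 CPM in X/A-like cells. *Dtx3* rose in ECL-like (2.86 ± 0.15) and D-like cells (3.21 ± 0.20).

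*Nrarp* was among the genes that fell in ECL-like cells (0 and 1 UMIs) and in D-like cells (0 UMIs), *Sox9* in ECL-like cells (-2.81 ± 0.18) and in macrophage-like cells (0 UMIs, at least 17.8-fold lower), and *Dtx4* in X/A-like cells (0 and 2 UMIs). *Id1* fell in tuft-like (-1.68 ± 0.26), D-like (-2.33 ± 0.33), X/A-like (-3.12 ± 0.35) and macrophage-like cells (1 and 2 UMIs) and rose in endothelial-like cells (1.92 ± 0.26), where it stood at 1066 and 893 CPM. *Adam17* fell in tuft-like cells (-1.77 ± 0.33). In endothelial-like cells *Psen2* had 0 UMIs and *Sox9* 3 and 0.

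In dataset 1, 35 of the other pathway genes were tested. From isthmus-like to neck cells 7 rose and 4 fell (13.1% and 16.2% of all genes), among them *Furin* (4.82 ± 0.52), *Dtx3* (2.37 ± 0.58) and *Nrarp* (-1.81 ± 0.38), with *Neurl1b* at 1 UMI in each pool of neck cells against 19 and 18. In parietal cells 8 rose and 8 fell (28.3% and 32% of all genes), and there *Aph1c* had 20 and 37 UMIs against 1 and 0, *Tle2* 32 and 53 against 2 and 1, *Dtx4* 1 and 0 against 40 and 70, and *Nrarp* 0 and 1 against 51 and 54. In corpus over antrum pit cells 3 rose and 0 fell (3.75% and 5.48% of all genes), with *Sox9* (1.51 ± 0.20) and *Tle4* (1.34 ± 0.36) named by the fixed rule.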

How the data were processed

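Single cells of wild-type mouse stomach were measured by Quartz-Seq2 in 18 plate libraries, 6 of dataset 1 and 12 of dataset 2. The authors deposited whole UMI counts per gene and well, made with bcl2fastq, FASTX-Toolkit, Drop-seq tools, STAR and a barcode correction script against GRCm39 with the Gencode M27 annotation, and clustered the cells in Seurat after removing those with fewer than 2500 detected genes. The percent of mitochondrial UMIs that the authors deposited for each cell was not used. The deposited cluster labels were joined to the counts by plate and barcode, and every cell without a label was left out. In well-based sorting 1 cell was directed to each well, and no doublet caller was run. The columns of per-sample values that were left unused numbered 0.

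The members and the lists were chosen with earlier results of these data known. UMI counts were summed per pool and cell type or cluster, since cells are not replicates. Each dataset has 2 pools, so that each group held 2 sums. The p-values rest on a spread estimated over all groups of a fit together, not over the compared groups alone. The sums were tested with edgeR 4.0.16 (glmQLFit and glmQLFTest, R 4.3.3, limma 3.58.1), with the default filterByExpr filter, TMM scaling and Benjamini-Hochberg adjustment over all genes tested, and calls at 0.05. The fit of epithelial types in dataset 2 held 12 sums with 6 residual degrees of freedom, that of all clusters 40 sums with 20, that of mucin classes 14 with 7 and that of dataset 1 14 with 7. The SE is the absolute log2 fold change divided by the square root of F. Levels are CPM on the TMM scale, set separately for types and for clusters. Where a group had at most 3 UMIs, a ratio of summed counts with a 95% exact interval, or a bound at a floor of 3 UMIs over the group, takes the place of the fitted value. Tables and figures were made with Python 3.11.15, pandas 2.3.3, numpy 2.4.6, scipy 1.17.1 and matplotlib 3.10.9. The test was checked on simulated data before it was run on the deposited counts.

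Both pools supply every type, so the pool pairs the sums through shared mice. Deviations of same-pool sums correlated with a median r of 0.174 (0.093 to 0.492, above 0.1 in 14 of 15 pairs of types) in dataset 2 and 0.0216 (-0.0289 to 0.0504, 0 of 21) in dataset 1. Alternatives were DESeq2 1.42.0, RLE size factors, no filter on low counts, the pool as a block, each pool left out in turn and a mucin cut at the 99th percentile. Total UMIs as the scale, neck cells without cluster 0 and isthmus cells without cluster 11 were added after the values were seen.

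All 10 members are described. Other pathway genes are named as the 2 largest rises and 2 largest falls of a comparison among those called, if each pool of the higher group held 10 UMIs or more and the pools moved in the same direction. A gene that this rule named is not reported here. Epithelial names are the study's, and other clusters are called by their marker genes. Promoter sequences are from RefSeq.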

Additional observations from a re-analysis of the deposited data

Results flagged for a closer look

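UMIs of the 10 members were also present in wells that the study did not keep, which no comparison above uses. In dataset 1 these 1813 wells held 215 UMIs of the members, or 71.3 per 1000000 of their UMIs against 261 per 1000000 in the kept cells. In dataset 2 the 615 wells that were not kept held 258 UMIs of the members, or 156 per 1000000 against 316 per 1000000 in the kept cells.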

How the results depend on the processing

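Of 592 values of members under an alternative, 501 kept their direction and their side of the threshold, 47 lost a call, 23 gained one and 21 changed sign. With 1 pool left out, the remaining sum of a group was assumed to vary like the other groups, and tests of any difference among types were not run in this way. Without isthmus cluster 11, in the comparisons of neck, pre-pit and parietal with isthmus cells, 19 of 19 values kept their direction and their side of the threshold. Without neck cluster 0 the difference of *Hes1* between neck and isthmus cells became -0.14, and that between chief and neck cells 0.58. With total UMIs as the scale *Jag1* in parietal cells became -0.11. The other changes of sign were of differences called in neither setting. They were *Jag1* (-0.00495) and *Jag2* (-0.10) in pre-pit cells and *Notch4* in parietal cells (-0.23) with total UMIs as the scale, and *Notch1* in cluster 17 with total UMIs (0.20), RLE size factors (0.18) and DESeq2 (0.18). The cause was not tested. Leaving out each pool in turn gave values on both sides of 0 for *Hes1* (-0.914 to 0.0663 in chief against neck cells, -0.00601 to 0.41 in mature pit cells, -0.332 to 0.0546 in corpus pit cells of dataset 1), *Jag2* (-0.10 to 0.33 in pre-pit cells), *Dll1* (-1.78 to 0.0571 in isthmus clusters 5 and 6), *Notch1* (-0.0354 to 0.685 in neck cells of dataset 1, -1.40 to 0.0213 in cluster 15, -0.12 to 0.16 in cluster 17) and *Notch2* (-0.77 to 0.22 in neck cells of dataset 1, -0.0551 to 0.150 in *Muc6*-only cells, -1.22 to 0.0864 in cluster 17, -0.37 to 0.24 in mature pit cells). The pool as a block, the fit without the filter and DESeq2 moved calls of members in 6, 8 and 10 of 81 cases. Beside the values with the block given above (*Hes1* in chief cells, *Notch2*, *Jag2* and *Hes1* in isthmus clusters 5 and 6, *Jag1* in cluster 15 and in corpus pit cells of dataset 1), the block changed no other call.

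The number of genes called fell when each pool was left out, which also leaves fewer samples. In dataset 2 the counts were 4256 to 4403 for neck (7045 with both pools), 1225 to 1828 for pre-pit (3867), 417 to 668 for mature pit (1439), 7501 to 7504 for parietal (9979), 3470 to 3538 for chief (5358), 1540 to 1671 for isthmus clusters 5 and 6 (3511) and 1327 to 1357 for the mucin classes (3855). For clusters 14 to 19 they were 3872 to 4203 (7104), 1920 to 2552 (4265), 2960 to 3463 (5619), 3327 to 3464 (6050), 1558 to 1912 (3120) and 1068 to 1537 (2588). In dataset 1 they were 1658 to 1694 for neck (2996), 4256 to 4996 for parietal (6172) and 259 to 349 for corpus pit cells (945). DESeq2 called 1458 genes in neck cells and 548 in corpus pit cells of dataset 1, and total UMIs as the scale gave 9800 calls in chief cells. On that scale the share of calls that were higher moved from 48.3% to 7.27% in chief, 49% to 27.2% in parietal, 44.3% to 14.4% in pre-pit, 63% to 34.5% in mature pit and 46.9% to 78.7% in *Muc6*-only cells, from 47% to 30.3% in parietal cells of dataset 1, and in clusters 14 to 19 from 49.4%, 49.4%, 48.9%, 47.8%, 45.4% and 38.8% to 72.7%, 84.9%, 69.4%, 62.5%, 60.4% and 73%. With RLE size factors the same 6 clusters had 60.3%, 60.8%, 64.7%, 61.9%, 60.9% and 59%, and isthmus clusters 5 and 6 moved from 61.8% to 51.1%. Depth limits *Notch3*, *Notch4*, *Dll1*, *Dll4* and *Hey1*, whose UMIs in the kept cells of dataset 2 numbered between 62 and 129.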
